A study of Saccharomyces cerevisiae with 3 samples.

Results

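The nuclear pore proteins and nuclear transport factors of Saccharomyces cerevisiae were followed as a list of 52 genes chosen by name, out of 5325 genes named on the array. Named probes were found for 49 of them, with PRP20 matched through its synonym SRM1. SEH1, NUP157 and NMD5 had no named probe and were not analysed here. Genomic DNA from 1 pooled variomics library, in which each tagged strain carries variants of a given gene, was hybridised to 3 two-colour tag arrays, 1 for cycloheximide, 1 for rapamycin and 1 for tunicamycin. The labels name the pool as one of essential genes, and the cells of every group had been sporulated and then selected on medium. Tags were amplified from the drug-treated cells with Cy5 and from an untreated control with Cy3. The labels give no strain background or time, and they carry an amount each (cycloheximide 30 ng, rapamycin 20 ng, tunicamycin 3 "vg") without saying what it refers to. The rapamycin sample is described as single and the other samples as pool, so rapamycin and any difference in the material cannot be told apart. Cycloheximide blocks translation elongation, rapamycin acts on TOR kinase when bound to Fpr1, and tunicamycin blocks Alg7 and with it protein N-glycosylation.

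The nuclear pore is a ring of proteins set in the nuclear envelope. Scaffold nucleoporins and membrane nucleoporins build the ring, and nucleoporins with phenylalanine-glycine (FG) repeats fill its channel. Karyopherins carry cargo through the FG repeats, importins inward and exportins outward, and release or bind the cargo according to whether the small GTPase Ran is in its GDP or GTP form. Most mRNA leaves by another route, bound to the heterodimer of Mex67 and Mtr2. Many of these genes are essential in yeast while others can be deleted, often because a paralog or a parallel route remains.

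Every value below is a log2 ratio minus the median spot of its array. It was read as Cy5 over Cy3, so that a negative value means fewer tags after the drug. That direction is likely, from the dyes that the labels assign, but it is not written in the file. A gene value is the mean of the measured probes of the gene, and an SD is the spread between those n probes on 1 array. Probes are not replicates of a selection. No drug had a replicate array, so there is no p-value, and differences between drugs, roles or genes were not tested. A gene was called depleted or enriched by a rule of size, in units of the spread of all gene values of the array (0.924, 1.06 and 0.914 for cycloheximide, rapamycin and tunicamycin). The call required at least 2 measured probes, a gene value at least 3 units from 0 and every probe at least 2 units to the same side. The 3-unit line lay at -2.77, -3.17 and -2.74.

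Strains of many pore and transport genes were depleted after each selection, and none was called enriched. Under cycloheximide 15 of the 44 members with at least 2 measured probes were depleted (34.1%), against 15.2% of all genes on that array. Under rapamycin it was 8 of 34 (23.5%), against 6.45% of all genes. Under tunicamycin it was 19 of 43 (44.2%), against 13.6% of all genes. The number of enriched members was 0 on each array, where 0.0485%, 0.0747% and 0.12% of all genes were enriched. Over members with any measured probe, 48, 44 and 49 genes, the median values were -1.85, -2.52 and -1.11, while the medians of all genes were -0.04, -0.21 and -0.09. Members with values cover -4.70 to 2.69 under cycloheximide, -8.66 to 0.87 under rapamycin and -6.64 to 1.87 under tunicamycin. The cycloheximide count depended on the processing. It was 3 of 48 with the lowest-numbered measured probe of each gene alone (6.25%, against 1.66% of all genes). In that setting the spread unit rose to 1.28, while the median of the members was -1.56. The count was 0 of 33 when spots at ratios of small whole numbers were left out, where the spread unit was 1.64 and 0.416% of all genes were depleted. With those spots left out the tunicamycin count was 12 of 31 (38.7%), against 27.6% of all genes. The share of all genes is taken over every named gene of the array, whether or not the labelled pool held its strains.

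The members parted by whether the gene is known to be essential. From textbook knowledge, and not from the labels, 23 members were taken as essential, 23 as having a viable null, and 6 as varying with strain or temperature. Among essential members the depleted were 12 of 21 for cycloheximide, 4 of 11 for rapamycin and 15 of 21 for tunicamycin, with medians over all measured members of -3.65, -5.74 and -4.60. Over the 11 with at least 2 measured probes the rapamycin median was -3.69. Among members with a viable null 0 of 17, 2 of 18 and 1 of 16 were depleted, with medians of 0.08, -0.20 and -0.17. Of these members 11 have 12 probes, all of which that are measured must pass for a call, while 21 of the 23 essential members have 2 probes. Among the 9 members with a viable null and 2 probes, 0 of 6, 2 of 7 (28.6%) and 1 of 5 (20%) were depleted, with medians of 0.07, -0.90 and -0.71. Under rapamycin that share was close to the 36.4% of essential members, of which only 11 of 23 had at least 2 measured probes. Counted by any measured probe past the 3-unit line, 16 of 18 essential members passed there. Of the members with a viable null and 2 probes, 2 of 9 did. In the group that varies, 3 of 6, 2 of 5 and 3 of 6 were depleted. In the lowest 10% of all genes stood 14 of 23, 10 of 18 and 12 of 23 measured essential members. Of the members with a viable null 0, 1 and 0 stood there. The labels name a pool of essential genes and do not say whether it held strains of members with a viable null. Values near 0 in those members therefore cannot be read as strains that kept their share under the drug.

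**Figure D1:**
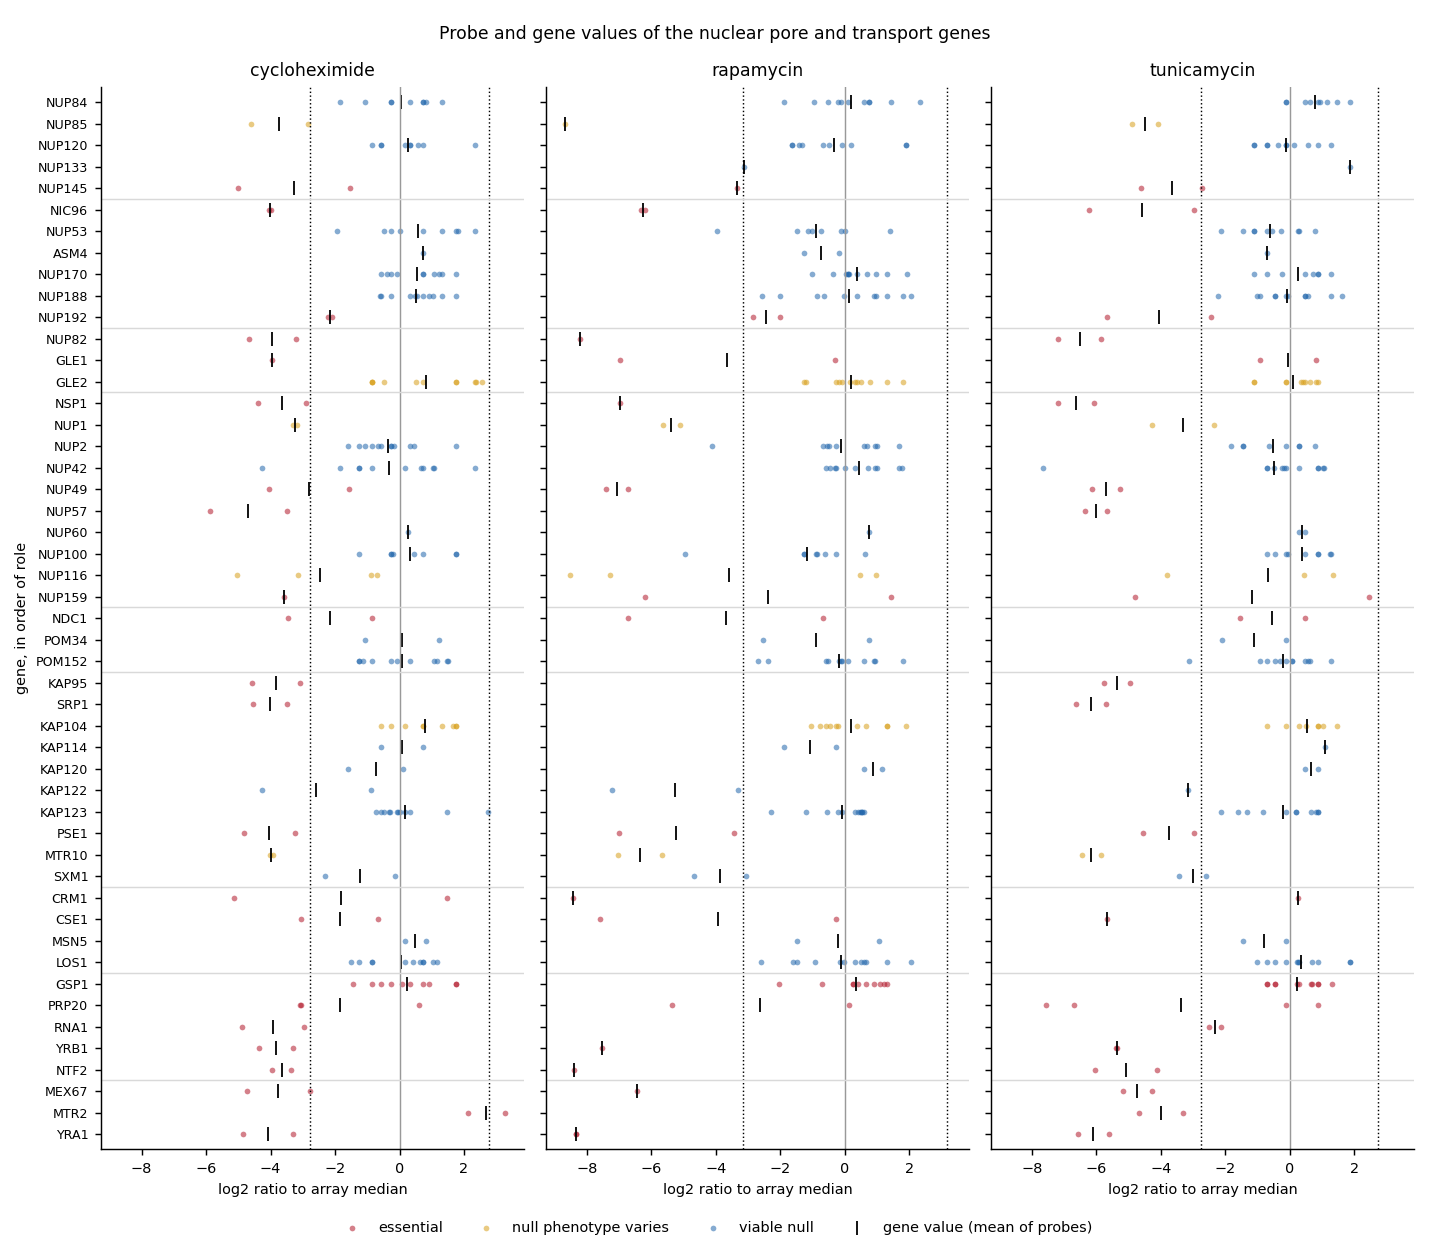
Values of every measured probe (dots) and the gene value (black bar) of the 49 genes on the 3 arrays, in log2 relative to the array median, with genes in order of role and coloured by null phenotype. Dotted lines mark 3 spread units. Essential members such as NIC96, PSE1 and YRA1 lie left of the line on every array, members with a viable null and many probes scatter around 0, and MTR2 lies right of 0 under cycloheximide and left of the line under tunicamycin.

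In all, 5 members were depleted on every array: NIC96, NUP1, PSE1, MTR10 and YRA1. NIC96 (YFR002W), the inner ring scaffold protein that anchors the Nsp1 complex, had -4.02 ± 0.045 under cycloheximide, -6.26 ± 0.081 under rapamycin and -4.60 ± 2.28 under tunicamycin (SD, n = 2 each). Its probes nearly coincided on the first of these arrays at -4.05 and -3.99 and parted on the third at -6.21 and -2.98. YRA1 (YDR381W), the mRNA export adaptor that hands transcripts to Mex67, had -4.09 ± 1.08, -8.33 ± 0.013 and -6.09 ± 0.69 (n = 2 each). Its rapamycin value is 322-fold below the array median and was the lowest among members with 2 measured probes there. PSE1 (YMR308C), an importin of ribosomal proteins and transcription factors, had -4.04 ± 1.12, -5.22 ± 2.52 and -3.76 ± 1.13. MTR10 (YOR160W), an importin of mRNA-binding proteins, had -3.98 ± 0.067, -6.34 ± 0.98 and -6.16 ± 0.43. NUP1 (YOR098C), an FG nucleoporin of the nuclear basket, had -3.23 ± 0.088, -5.38 ± 0.37 and -3.31 ± 1.36. In these 5 genes every probe was measured on every array, and no probe lay above -2.35.

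Depletion on a pair of arrays was seen for 11 members and on a lone array for 5. The first group was KAP95, MEX67, NSP1, NTF2, NUP49, NUP57, NUP82, NUP85, SRP1, SXM1 and YRB1. For 8 of them, all but NUP49, NUP85 and SXM1, the array without a call was rapamycin and the gene is essential, and there 1 probe or none was measured. The second group was KAP122, MTR2, NUP145, NUP192 and RNA1. No call on any array was made for 31 listed genes, of which 21 have a viable null, 7 are essential and 3 vary.

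In the scaffold of the pore, the outer ring was represented by 5 genes. NUP84, NUP120 and NUP133 have viable nulls, NUP145 is essential, and NUP85 varies. NUP85 (YJR042W) had probes at -2.84 and -4.62 under cycloheximide and at -4.90 and -4.10 under tunicamycin, and was depleted on both arrays. Its only measured probe under rapamycin stood at -8.66, the 2nd lowest value of the 5110 genes there. NUP145 (YGL092W), whose protein cleaves itself into an FG nucleoporin and an outer ring subunit, had -3.27 ± 2.45, then -3.34 (n = 1) and -3.66 ± 1.34, and was depleted under tunicamycin. Its higher-numbered probe at -5.01 and its lower-numbered probe at -1.54 kept it from a call under cycloheximide. NUP84 (YDL116W) had 0.05 ± 1.02 (n = 9), 0.20 ± 1.15 (n = 11) and 0.79 ± 0.67 (n = 9), and NUP120 (YKL057C) 0.27 ± 0.95 (n = 9), -0.32 ± 1.34 (n = 10) and -0.13 ± 0.79 (n = 11). Neither approached the 3-unit line on any array. NUP133 (YKR082W) had no measured probe under cycloheximide, and 1 probe at -3.14 under rapamycin and at 1.87 under tunicamycin.

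In the inner ring, NIC96 and NUP192 are essential and the other genes are not. NUP192 (YJL039C), the largest inner ring protein, had -2.15 ± 0.085, -2.43 ± 0.60 and -4.06 ± 2.27 (n = 2 each). Its probes lay close together under cycloheximide at -2.21 and -2.09, short of the 3-unit line, and it was depleted under tunicamycin alone. NUP53 (YMR153W), a membrane-binding linker, had 0.58 ± 1.37 (n = 9), -0.88 ± 1.54 (n = 8) and -0.60 ± 0.89 (n = 10). Its paralog ASM4 (YDL088C) had 0.74 (n = 1), -0.73 ± 0.76 (n = 2) and -0.71 (n = 1), so neither of the pair was depleted. NUP170 (YBL079W), whose paralog NUP157 was not analysed here, had 0.55 ± 0.81 (n = 10), 0.39 ± 0.81 (n = 11) and 0.27 ± 0.86 (n = 8). NUP188 (YML103C) likewise stayed near 0, at 0.51 ± 0.76 (n = 11), 0.12 ± 1.50 (n = 11) and -0.08 ± 1.06 (n = 12).

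On the cytoplasmic face, NUP82 (YJL061W), which anchors the mRNA export platform, had -3.95 ± 1.03 (n = 2), -8.20 (n = 1) and -6.51 ± 0.94 (n = 2). It was depleted under cycloheximide and tunicamycin, and its tunicamycin value was the 2nd lowest among the members. GLE1 (YDL207W), which activates the helicase Dbp5 in mRNA export, had -3.95 (n = 1), -3.64 ± 4.70 (n = 2) and -0.07 ± 1.23 (n = 2). Under rapamycin its probes stood at -0.31 and -6.96, so that 1 tag was near 0 and its partner far below the line. GLE2 (YER107C), an mRNA export factor that binds Nup116, had 0.81 ± 1.40 (n = 11), 0.19 ± 0.90 (n = 12) and 0.10 ± 0.73 (n = 10).

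The FG nucleoporins ranged from -4.70 to 0.33 under cycloheximide, from -7.05 to 0.74 under rapamycin and from -6.64 to 0.38 under tunicamycin. NSP1 (YJL041W), the founding member of the FG family, had -3.65 ± 1.05 (n = 2), -6.95 (n = 1) and -6.64 ± 0.80 (n = 2), and its tunicamycin value was the lowest of all members, 99.5-fold below the array median. Its partners in the channel complex behaved alike in sign. NUP57 (YGR119C) had -4.70 ± 1.69 and -6.02 ± 0.48 (n = 2 each) under cycloheximide and tunicamycin and no measured probe under rapamycin. Its cycloheximide value was the lowest of the members and the 31st lowest of 5192 genes. NUP49 (YGL172W) had -2.81 ± 1.75, -7.05 ± 0.49 and -5.70 ± 0.60 (n = 2 each), and missed a call under cycloheximide because a probe lay at -1.58. The genes with viable nulls stood apart from these. NUP2 (YLR335W), a mobile basket protein, had -0.35 ± 0.89 (n = 12), -0.12 ± 1.61 (n = 10) and -0.52 ± 0.97 (n = 8). NUP60 (YAR002W) of the basket had 0.25 (n = 1), 0.74 (n = 1) and 0.37 ± 0.12 (n = 2). NUP42 (YDR192C), which binds Gle1, had -0.32 ± 1.82 (n = 11), 0.44 ± 0.84 (n = 11) and -0.50 ± 2.35 (n = 12). The spread of NUP42 came with 1 of its 12 probes, which stood at -4.26 under cycloheximide and -7.65 under tunicamycin and was empty under rapamycin, while its other probes lay between -1.85 and 2.32.

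NUP100 and NUP116 are paralogs with GLFG repeats, of which NUP116 is needed at high temperature. NUP100 (YKL068W) had 0.33 ± 1.05 (n = 8), -1.19 ± 1.64 (n = 8) and 0.38 ± 0.74 (n = 9). NUP116 (YMR047C) had -2.45 ± 2.06 (n = 4), -3.59 ± 5.01 (n = 4) and -0.67 ± 2.74 (n = 3) and was called on no array. The 4 probes of NUP116 form 2 pairs that differed. The first pair had means of -0.81 ± 0.13, 0.72 ± 0.34 and 0.89 ± 0.63 (n = 2 each), and the second pair -4.10 ± 1.34 (n = 2), -7.90 ± 0.87 (n = 2) and -3.80 (n = 1). The second pair lay below the first on all 3 arrays, and the gene mean describes neither. NUP159 (YIL115C), the docking site of Dbp5 and an essential gene, had its higher-numbered probe at -3.58, -6.20 and -4.80, and its lower-numbered probe empty under cycloheximide and at 1.42 and 2.46 under rapamycin and tunicamycin.

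Of the membrane nucleoporins, NDC1 is essential and POM34 and POM152 are not, and none was depleted on any array. NDC1 (YML031W), shared between the pore and the spindle pole body, had its lower-numbered probe at -3.47, -6.71 and -1.54 and its higher-numbered probe at -0.85, -0.68 and 0.46. Only the first of these probes lay past the 3-unit line, under cycloheximide and rapamycin. POM34 (YLR018C) had 0.07 ± 1.61, -0.90 ± 2.32 and -1.11 ± 1.39 (n = 2 each). POM152 (YMR129W) had 0.06 ± 1.10 (n = 11), -0.18 ± 1.30 (n = 12) and -0.22 ± 1.11 (n = 12).

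**Figure D2:**
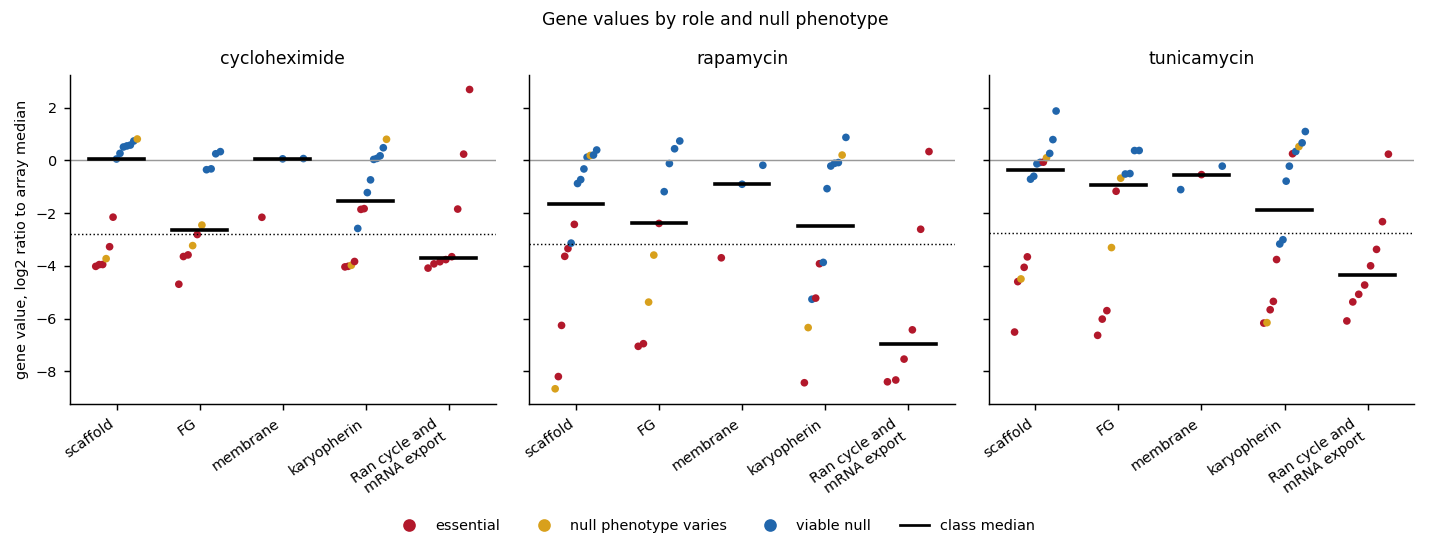
Gene values of the members by role on the 3 arrays, in log2 relative to the array median, each dot a gene coloured by null phenotype, black bars the median of the role and the dotted line 3 spread units below 0. Scaffold, FG and karyopherin genes include both low, mostly essential genes and genes near 0, and in the Ran cycle and mRNA export, where all 8 genes are essential, GSP1 lies near 0 on every array. The scaffold includes NUP82, GLE1 and GLE2 of the cytoplasmic face.

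Among importins, the classical heterodimer was depleted under cycloheximide and tunicamycin. KAP95 (YLR347C), importin beta, had -3.83 ± 1.05 and -5.35 ± 0.57, and SRP1 (YNL189W), its adaptor importin alpha, -4.02 ± 0.74 and -6.17 ± 0.65 (n = 2 each). All 4 probes of this pair were empty under rapamycin. The importins of the dispensable kind mostly had values near 0, and the labels do not say whether their strains were in the pool. KAP123 (YER110C), the main importer of ribosomal proteins, had 0.17 ± 0.99 (n = 12), -0.08 ± 0.89 (n = 12) and -0.22 ± 1.08 (n = 11). KAP114 (YGL241W) had 0.08 ± 0.93 (n = 2), -1.07 ± 1.14 (n = 2) and 1.10 (n = 1). KAP120 (YPL125W) had -0.74 ± 1.20, 0.87 ± 0.41 and 0.67 ± 0.29 (n = 2 each), the rapamycin value being the highest of the members there. KAP104 (YBR017C), which imports the mRNA-binding proteins Nab2 and Hrp1 and whose null phenotype varies, had 0.80 ± 0.88 (n = 9), 0.20 ± 0.98 (n = 11) and 0.52 ± 0.69 (n = 8).

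KAP122 and SXM1 were the only members with a viable null that were depleted on any array. KAP122 (YGL016W), an importin of a transcription factor subunit, had -2.58 ± 2.38 (n = 2), -5.27 ± 2.75 (n = 2) and -3.17 (n = 1), with the higher-numbered probe at -4.26, -7.21 and -3.17. It was depleted under rapamycin, and the lower-numbered probe stood at -0.90 under cycloheximide and -3.32 under rapamycin. SXM1 (YDR395W), an importin of the La homologue Lhp1, had -1.22 ± 1.52, -3.87 ± 1.14 and -3.01 ± 0.60 (n = 2 each). It was depleted under rapamycin and tunicamycin. In the reference order of the chromosome the neighbours of SXM1 are RPT3 and NCB2, a proteasome and a transcription gene. NCB2 had -4.21 ± 1.20 (n = 2), -8.67 (n = 1) and -7.69 ± 0.56 (n = 2). RPT3 had -1.13 ± 2.65 (n = 2), -3.07 ± 4.80 (n = 2) and -4.07 (n = 1). The neighbours of KAP122, ATE1 and BIL2, ranged from -1.45 to 0.71. That KAP122 or SXM1 strains were in the pool cannot be read from the labels.

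No exportin was called on any array, although CRM1 and CSE1 are essential. CRM1 (YGR218W), the exportin of proteins with leucine-rich signals, had its lower-numbered probe at 1.47 under cycloheximide and 0.25 under tunicamycin and its higher-numbered probe at -5.13 under cycloheximide and -8.43 under rapamycin, with the other spots empty. CSE1 (YGL238W), which returns importin alpha to the cytoplasm, had its lower-numbered probe at -3.06, -7.58 and -5.67 and its higher-numbered probe at -0.65 and -0.26, with the last spot empty. In each gene 1 probe lay past the 3-unit line on every array where it was measured, and its partner did not on any. MSN5 (YDR335W), an exportin of phosphorylated proteins, had 0.48 ± 0.46, -0.21 ± 1.80 and -0.79 ± 0.93 (n = 2 each). LOS1 (YKL205W), the tRNA exportin, had 0.04 ± 0.97 (n = 11), -0.11 ± 1.32 (n = 12) and 0.34 ± 0.95 (n = 11).

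In the Ran cycle, RNA1 (YMR235C), the GTPase-activating protein of Ran, had -3.92 ± 1.37 under cycloheximide and -2.32 ± 0.27 under tunicamycin (n = 2 each) and no measured probe under rapamycin. It was depleted under cycloheximide alone. YRB1 (YDR002W), the Ran-binding protein of the cytoplasm, had -3.84 ± 0.74 (n = 2), -7.54 (n = 1) and -5.37 ± 0.020 (n = 2). NTF2 (YER009W), which carries Ran back into the nucleus, had -3.65 ± 0.41 (n = 2), -8.40 (n = 1) and -5.08 ± 1.36 (n = 2). The gene of the GTPase itself stayed near 0. GSP1 (YLR293C), the essential Ran gene, had 0.24 ± 1.06 (n = 10), 0.34 ± 1.03 (n = 10) and 0.24 ± 0.71 (n = 11), and its lowest probe on any array was -2.04. It has 12 probes, and 9 of 10, 2 of 10 and 7 of 11 measured spots lay at ratios of small whole numbers. RNA1, YRB1 and NTF2 have 2 probes each and no such spot. The paralog of GSP1, GSP2 (YOR185C), which is dispensable, had 0.41 ± 0.094, -0.05 ± 0.066 and 0.28 ± 0.20 (n = 2 each), so the Ran genes had like values. PRP20 (YGL097W), the nucleotide exchange factor of Ran, had 4 probes and -1.85 ± 2.13 (n = 3), -2.61 ± 3.89 (n = 2) and -3.38 ± 4.36 (n = 4). Its tunicamycin probes fell into a low set at -7.55 and -6.70 and a set at 0.87 and -0.13, each low probe being the partner of 1 near 0.

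In mRNA export, MEX67 (YPL169C), the main export receptor, had -3.76 ± 1.37 (n = 2), -6.43 (n = 1) and -4.73 ± 0.64 (n = 2), and was depleted under cycloheximide and tunicamycin. MTR2 (YKL186C) encodes the small subunit of the same heterodimer and had the highest cycloheximide value of the members. Its probes stood at 3.27 and 2.12, a gene value of 2.69 ± 0.81 (n = 2), which is 6.46-fold above the array median. Its rank from the highest was 17.5 of 5192 genes, a tie. The enrichment call needs 2.77, and MTR2 was called enriched when the spread of non-essential synthesis genes served as the unit and at a looser threshold of 2 and 1 units. Those settings called 0.534% and 0.704% of all genes enriched, against 0.0485% by the main rule. Under tunicamycin MTR2 was depleted at -4.00 ± 0.97, with probes at -4.68 and -3.32, and under rapamycin both probes were empty. Its chromosomal neighbours FAT3 and ASH1 had 1.93 ± 0.55 and 0.24 ± 0.71 (n = 2 each) under cycloheximide. Under tunicamycin they had 1.17 ± 0.41 and -0.66 ± 1.12 (n = 2 each). Under rapamycin they had -1.26 (n = 1) and 0.53 ± 1.71 (n = 2).

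The roles differ in how many of their genes are essential. The Ran cycle and mRNA export genes, all 8 essential, had medians of -3.71, -6.98 and -4.36, with 5 of 8, 1 of 3 and 5 of 8 depleted. Medians are over genes with any measured probe, and counts over genes with at least 2. For this role the rapamycin median over the 3 counted genes was -2.61. The FG nucleoporins, 4 of 10 essential, had -2.63, -2.39 and -0.92, with 3 of 8, 2 of 7 and 4 of 10 depleted. The karyopherins, 5 of 15 essential, had -1.53, -2.47 and -1.90, with 4 of 14, 4 of 11 and 5 of 10 depleted. The scaffold, 5 of 16 essential, had 0.05, -1.65 and -0.37, with 3 of 11, 1 of 10 and 5 of 12 depleted. It was counted with NUP82, GLE1 and GLE2 of the cytoplasmic face. The membrane nucleoporins, 1 of 3 essential, had 0.06, -0.90 and -0.54, with 0 of 3 depleted on each array. Of all genes 15.2%, 6.45% and 13.6% were depleted. Among the essential members alone, the membrane role holds NDC1 only, at -2.16, -3.69 and -0.54, and the medians of the other roles were all below -3. Under cycloheximide these medians were -3.95 for the scaffold, -3.62 for FG, -3.83 for karyopherins and -3.71 for the Ran cycle and mRNA export. The scaffold median there is the value of GLE1, from 1 measured probe. Under rapamycin the medians were -3.64, -6.95, -5.22 and -6.98, over 5, 3, 3 and 6 genes. The scaffold median there is again the value of GLE1, with an SD of 4.70 over 2 probes. Under tunicamycin the medians were -4.06, -5.86, -5.35 and -4.36. The order of the roles was not the same on the 3 arrays, and the ranges of the roles overlapped on each.

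Empty and small-number spots were distributed unevenly over the members. Some measured values are those of a ratio between whole numbers no larger than 10. They made up 20.8%, 10.8% and 23.6% of the measured spots of essential members. In members with a viable null the shares were 72.4%, 40.2% and 73.2%, and over all genes 66.7%, 40.7% and 63.1%. Empty spots were 6.90%, 36.2% and 5.17% of the spots of essential members and 12%, 11.3% and 13.3% in members with a viable null, against 14.0%, 12.7% and 12.7% over all genes. Under rapamycin 5 essential members, NUP57, KAP95, SRP1, RNA1 and MTR2, had no measured probe, and 7 had 1, so only 11 of 23 could be called. When 1 measured probe sufficed, 16 of 44 members were depleted under rapamycin (36.4%), against 11.7% of all genes. The file does not say what an empty spot stands for.

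**Figure D3:**
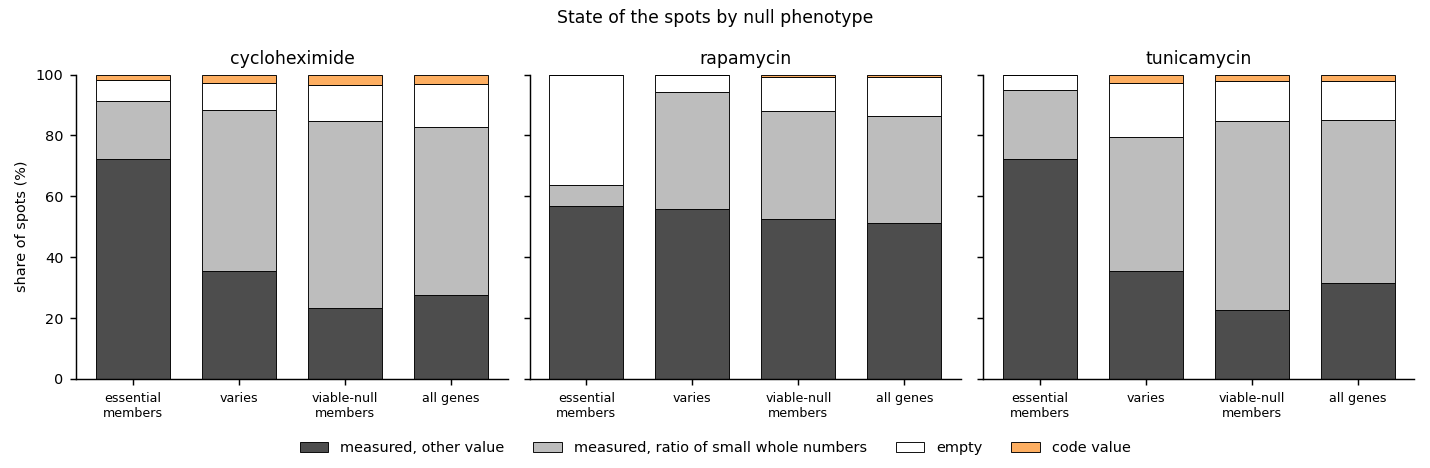
Share of spots (%) in each state on the 3 arrays, for essential members, members whose null phenotype varies, members with a viable null and all genes. Dark grey is a measured value, light grey a measured value at a ratio of small whole numbers, white an empty spot and orange the value 16.61, read as a code and left out. Under rapamycin 36.2% of the spots of essential members were empty, and ratios of small whole numbers were less frequent in essential members than in members with a viable null on each array.

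Counting members by any measured probe past the 3-unit line gave 26 of 48 (54.2%), 25 of 44 (56.8%) and 26 of 49 (53.1%) in the same order of drugs, against 18.1%, 22.1% and 17.6% of all genes. Of essential members it was 20 of 23, 16 of 18 and 18 of 23. Of members with a viable null it was 2 of 19, 5 of 20 and 4 of 20. Over all genes with 12 probes this share was 6.15%, 32.3% and 4.99%, and over all genes with 2 probes 20.4%, 20.3% and 19.9%. The full rule is hard to meet with 12 probes, since every measured probe must pass. None of the 14 members with 12 probes was depleted on any array, and of the 781 genes with 12 probes on the array 2, 3 and 1 were. The gene means of these 14 members ranged from -1.19 to 0.81 over the arrays, so they also lay near 0 by the mean. GSP1 is among them, with NUP84, NUP120, NUP53, NUP170, NUP188, GLE2, NUP2, NUP42, NUP100, POM152, KAP104, KAP123 and LOS1.

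The probes of a gene come in pairs whose numbers differ by 10971, and all 9397 such pairs of named probes carry the same gene. Of the 33 members with 2 probes, 28 had both measured under cycloheximide, and the higher-numbered probe was the lower of the pair in 21, with a median difference of -1.47. Over all genes with 2 measured probes it was the lower in 1853 of 3239, with a median difference of -0.415. Among depleted genes alone the offset was alike, in 13 of 15 members (median -1.49) and in 581 of 621 of all such genes (median -1.50). Under tunicamycin the offset ran the other way, with the higher-numbered probe lower in 8 of 27 members and a median difference of 0.85. Over all genes it was lower there in 1297 of 3284, with a median difference of 0.322. Under rapamycin it was lower in 6 of 18 members, with a median difference of 0.77, and in 1262 of 3130 of all genes, with 0.3625. The essential members NUP145, NUP49, NDC1, CRM1, CSE1 and PRP20 had a probe past the 3-unit line and another above the 2-unit line under cycloheximide, GLE1, NUP159, NDC1, CSE1 and PRP20 under rapamycin, and NUP159 and PRP20 under tunicamycin.

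**Figure D4:**
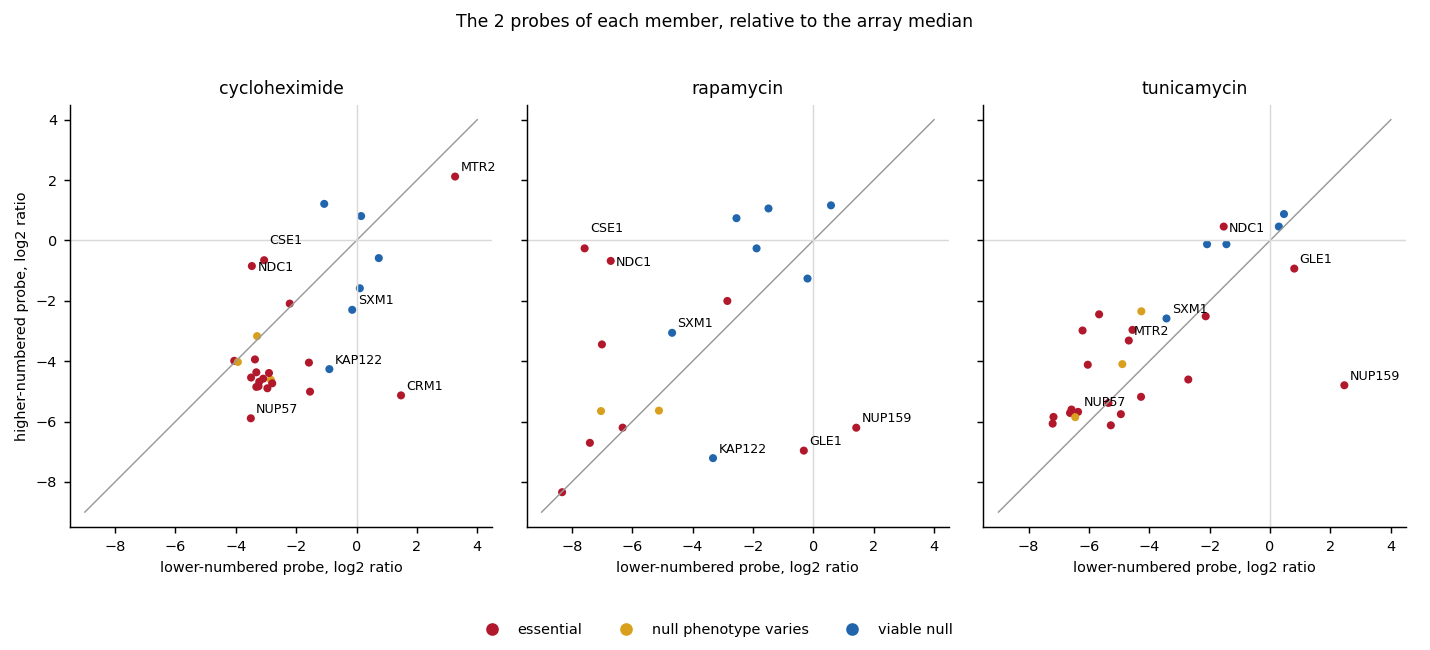
Higher-numbered against lower-numbered probe of the members with 2 probes, in log2 relative to the array median, 1 dot per gene with both probes measured, coloured by null phenotype, with the line of equal values. CRM1, NUP159, CSE1, NDC1 and GLE1 are among the genes far from the line, and MTR2 is at the upper right under cycloheximide. On that array 13 of the 15 depleted members lie below the line, against 581 of 621 depleted genes over all genes with 2 probes (not shown).

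Genes of the same pathways outside the list were counted by the same rule. SEC13 (YLR208W), which the outer ring shares with the vesicle coat COPII, was depleted on all 3 arrays at -3.56 ± 0.96, -8.20 ± 0.030 and -6.06 ± 1.56 (n = 2 each). Among 11 genes of pore assembly and the basket, 3 of 9, 2 of 7 and 2 of 10 were depleted (33.3%, 28.6% and 20%, against 15.2%, 6.45% and 13.6% of all genes). These were SEC13, BRR6 (YGL247W), a pore assembly factor of the nuclear envelope, at -4.34 ± 1.57 (cycloheximide) and -7.67 ± 1.13 (rapamycin), and the pore-bound SUMO protease ULP1 (YPL020C) at -3.47 ± 0.56 and -3.50 ± 2.08 under cycloheximide and tunicamycin. The basket paralogs MLP1 and MLP2 had values between -1.33 and 0.93 and were not called. Of the membrane paralogs POM33 and PER33, POM33 had 2.24 ± 2.12, -0.64 ± 0.87 and 0.45 ± 0.23 (n = 2 each) and PER33 stayed between -0.15 and 0.82. Among 19 further mRNA export genes 3 of 18, 2 of 17 and 2 of 16 were depleted (16.7%, 11.8% and 12.5%), against 15.2%, 6.45% and 13.6% of all genes, so the shares under cycloheximide and tunicamycin were near the background. NAB2 (YGL122C), a poly(A)-binding protein, had -3.55 ± 0.76, -8.45 ± 0.30 and -4.09 ± 0.32. CDC31 (YOR257W), a centrin of the export complex TREX-2 and of the spindle pole body, had -4.12 ± 0.63 and -5.85 ± 0.21 under cycloheximide and rapamycin, where it was depleted. HRP1 (YOL123W), an mRNA cleavage factor that shuttles with mRNA, had -4.53 ± 1.10 and -6.02 ± 1.30 under cycloheximide and tunicamycin.

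Among 7 further Ran and transport genes 2 of 6, 0 of 5 and 2 of 5 were depleted (33.3%, 0% and 40%), against 15.2%, 6.45% and 13.6% of all genes. Of all genes with 2 probes 19.2%, 8.12% and 17.2% were depleted. The 20% of the pore assembly and basket list under tunicamycin was near that last share. STS1 (YIR011C), which targets proteasomes to the nucleus, had -3.59 ± 1.73 and -7.12 ± 0.24 under cycloheximide and tunicamycin. YRB2 (YIL063C), a nuclear Ran-binding protein that assists Crm1, had -4.52 ± 1.69 and -7.20 ± 1.15 on the same arrays and no measured probe under rapamycin. In none of these 3 lists was a gene enriched on any array. The essential helicase genes DBP5 and SUB2 were called on no array. The probes of DBP5 parted like those of CRM1, at -8.34 and 0.44 under rapamycin and at -6.86 and 0.12 under tunicamycin.

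Other complexes were counted for comparison. Of 31 proteasome genes on the array 14 of 28, 5 of 15 and 15 of 27 were depleted, with medians of -2.81, -3.97 and -3.55. Of 12 RNA exosome genes 6 of 11, 2 of 5 and 6 of 10 were depleted, with medians of -2.87, -4.64 and -3.16. Of 53 non-essential amino acid and adenine synthesis genes 0 of 37, 0 of 42 and 0 of 34 were depleted and 0 enriched on each array, with medians of 0.15, 0.10 and 0.29. Of all genes 15.2%, 6.45% and 13.6% were depleted on the same arrays. The differences between these lists and the pore and transport genes were not tested.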

How the data were processed

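The deposited table holds 1 log2 ratio per spot and array for 22575 spots, and base 2 was read from the values, many of which fall on ratios of small integers (tolerance 0.0006). For the log2 values deposited by the authors, scanner, background correction and normalization are steps not given in the sources used here. Channel signals were not analysed, so no brightness filter could be applied. The array medians of -0.74, -1.32 and -0.87 (cycloheximide, rapamycin, tunicamycin) were subtracted here. The value 16.61, the log2 of 100000, stood on 739, 196 and 526 spots and was read as a code and left out, as were 3156, 2821 and 2951 empty spots. This left 18680, 19558 and 19098 measured spots, and the number of arrays limits the precision. Named were 18794 probes of 5325 genes, through the platform annotation, and 5321 of the genes had an identifier in the RefSeq table of assembly R64, used for symbols, locus tags and neighbours only. The unit of spread is the median absolute deviation of gene values times 1.4826.

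Values and calls were computed with Python 3.11.15, numpy 2.4.6 and pandas 2.3.3, with figures from matplotlib 3.10.9, and the calling was tested on simulated data. Gene values were the means of measured probes, and calls followed the rule of 3 and 2 units. Genes named with values are the members called on any array, the 3 highest and 3 lowest of each array, essential members without a call, paralog pairs and, from outside the list, called pathway genes; other members were added so that each is accounted for, and neighbours, DBP5 and SUB2 were added after their values were seen. The members and gene lists were chosen with earlier results of these data known. Alternatives changed the code, centring, normalization, probe summary, small-number spots, threshold, probe minimum and spread unit.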

Additional observations from a re-analysis of the deposited data

Results flagged for a closer look

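MTR2, the small subunit of the mRNA export receptor, had opposite values under a pair of drugs. It stood at 2.69 under cycloheximide, with each probe more than 2 spread units above the array median, and was depleted at -4.00 under tunicamycin. With 1 array per drug the difference was not tested. Over the alternatives the cycloheximide value ranged from 1.95 without centring to 3.27 with the lowest-numbered probe alone.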

How the results depend on the processing

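The number of depleted members stayed within 1.5 times its reported value under most alternatives, at 12 to 18 for cycloheximide (11 alternatives), 6 to 12 for rapamycin (10) and 13 to 21 for tunicamycin (12). With the lowest-numbered probe alone it was 3 for cycloheximide (1.66% of all genes) and 16 for rapamycin, and with the highest-numbered probe alone 18 for rapamycin. A single measured probe gave 16 of 44 for rapamycin (36.4%, against 11.7% of all genes). Without spots at ratios of small whole numbers the count was 0 of 33 for cycloheximide, against 0.416% of all genes. For tunicamycin it was then 12 of 31 (38.7%, against 27.6% of all genes). The reported tunicamycin shares were 44.2% and 13.6%, so the gap to all genes narrowed. The median of all members under tunicamycin was then -3.01. Without those spots the spread unit rose to 1.64 and 1.43 and fewer members, 33 and 31, had 2 measured probes. The cause of these changes was not tested. Without centring the rapamycin medians were -3.84 for all members, -7.06 for essential members and -1.52 for members with a viable null. Enriched members numbered 1 under cycloheximide, MTR2, at the looser threshold and with the unit of the non-essential list. Of all genes 0.704% and 0.534% were enriched in those settings, against 0.0485% by the main rule. Dropping the condition on single probes, chosen after seeing the data, gave 17, 12 and 20 depleted members (38.6%, 35.3% and 46.5%). By that rule 16.1%, 8.69% and 16.1% of all genes were depleted. No paired analysis was possible because each drug has 1 array. Empty spots limited the calls of essential members under rapamycin.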
